A study of Homo sapiens with 6 samples.

Results

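EZH2 is the catalytic subunit of Polycomb repressive complex 2 (PRC2), and the genes described here are EZH2 and 9 further genes of this complex. They were taken by name from a list of 10 genes of the complex, a list proposed with earlier results of these data known. A gene was read through the array probeset that carries its symbol, and of several such probesets through the brightest of them by the mean of all arrays. Of the 10 genes 8 had a named probeset (EZH2, EZH1, SUZ12, RBBP4, RBBP7, PHF19, MTF2 and PHF1), out of 14884 named genes in all. EED and JARID2 had none under this rule and are not analysed here. RNA came from U87 cells, a human glioblastoma cell line, with lentiviral knockdown of ZNF768 (3 arrays) or labelled as control (3 arrays). Cells were selected, and RNA was taken 96 h after infection. ZNF768 is a zinc finger transcription factor, and the comparison asks which transcripts change soon after it is depleted. Each array holds RNA of a whole culture, so fewer cells of a kind and less RNA per cell cannot be told apart. Per the methods, the arrays of a group are independent biological replicates. The hairpin, the control construct and the selection agent used for the arrays are not given in the sources used here.

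PRC2 places methyl groups on histone H3 at H3K27, a mark of silenced genes. EZH2, or its relative EZH1, holds the active SET domain and works only when bound to SUZ12 and EED, while RBBP4 and RBBP7 are histone-binding proteins that the complex shares with other chromatin complexes. The Polycomb-like proteins PHF1, MTF2 and PHF19 bring the core to its sites on DNA. EZH2 is known as the form of dividing cells and its gene as a target of the E2F transcription factors, EZH1 as the form that remains in resting cells.

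Each value is a log2 expression value obtained by the authors with Robust Multichip Average (RMA), which removes background, makes the arrays alike in distribution and summarizes the probes of a probeset. Array medians lay between 6.40 and 6.44, and correlations between arrays were 0.994 within ZNF768 knockdown, 0.992 to 0.994 within control and 0.977 to 0.980 between the groups. ZNF768 itself read 7.02, 7.14 and 7.31 in ZNF768 knockdown cells, against 8.49, 8.54 and 8.54 in control cells, and fell by 1.36 log2 units (standard error, SE, 0.0851, limma adjusted p = 0.00015). Here, "fell" and "rose" mean an adjusted p under 0.05 from limma, a linear model fitted to all 53617 probesets with Benjamini-Hochberg adjustment over all of them. Of 8 measured glioma and astrocyte markers 4 fell, VIM, CD44, NES and SOX9, where 16.8% of all genes fell. Their log2 values were 7.73 to 11.1 in ZNF768 knockdown cells and 8.23 to 11.8 in control cells. The other 4 (GFAP, AQP4, S100B and OLIG2) did not pass, with log2 fold changes of 0.20 for GFAP and -0.26 for OLIG2. NES, SOX9 and these 4 are named after their values were seen. AQP4 and S100B lay below the median of the arrays in both groups (5.44 and 5.90 in ZNF768 knockdown cells, 5.41 and 5.91 in control cells), and GFAP lay above it at 7.03 in ZNF768 knockdown cells and 6.83 in control cells. Of 7 measured markers of myeloid cells 3 fell, against the same 16.8% of all genes. They were CD68, EVI2B and CSF1R, with log2 fold changes of -3.11, -2.28 and -0.50. Over all 7 markers the mean log2 level was 6.67 to 6.78 on arrays of ZNF768 knockdown cells and 7.48 to 7.54 on control arrays. The lower mean lay mainly in CD68 and EVI2B, and the median log2 fold change of the 7 was -0.01. Of the 7, 4 did not pass. CD14, CD163 and LYZ lay below the array median in both groups, while TYROBP (7.10 in ZNF768 knockdown cells, 7.07 in control cells) and CSF1R (7.43 in ZNF768 knockdown cells, 7.93 in control cells) lay above it. All of these but CD68 and EVI2B are named after their values were seen. The part of either marker list in the PRC2 values was not tested.

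In ZNF768 knockdown cells 4 of the 8 measured PRC2 genes fell (EZH2, PHF19, SUZ12 and RBBP7), 1 rose (EZH1) and 3 did not pass the test (MTF2, RBBP4 and PHF1). Over all named genes 16.8% fell and 16.6% rose, which is 2501 and 2466 genes, or 2137 and 3257 when the arrays were centred on 6 housekeeping genes. EZH2 and PHF19 fell by 2-fold or more, 2 of the 8, against 3.37% of all genes. With housekeeping centring PHF19 had a log2 fold change of -0.96, short of 2-fold, which leaves 1 of the 8. The 3 arrays of ZNF768 knockdown cells lay entirely below the 3 control arrays for 4 of the 8, where 23.5% of all genes did so, and entirely above them for EZH1, where 28.0% of all genes did so. The median log2 fold change was -0.31 over the 8 genes and 0.04 over all genes.

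**Figure D1:**
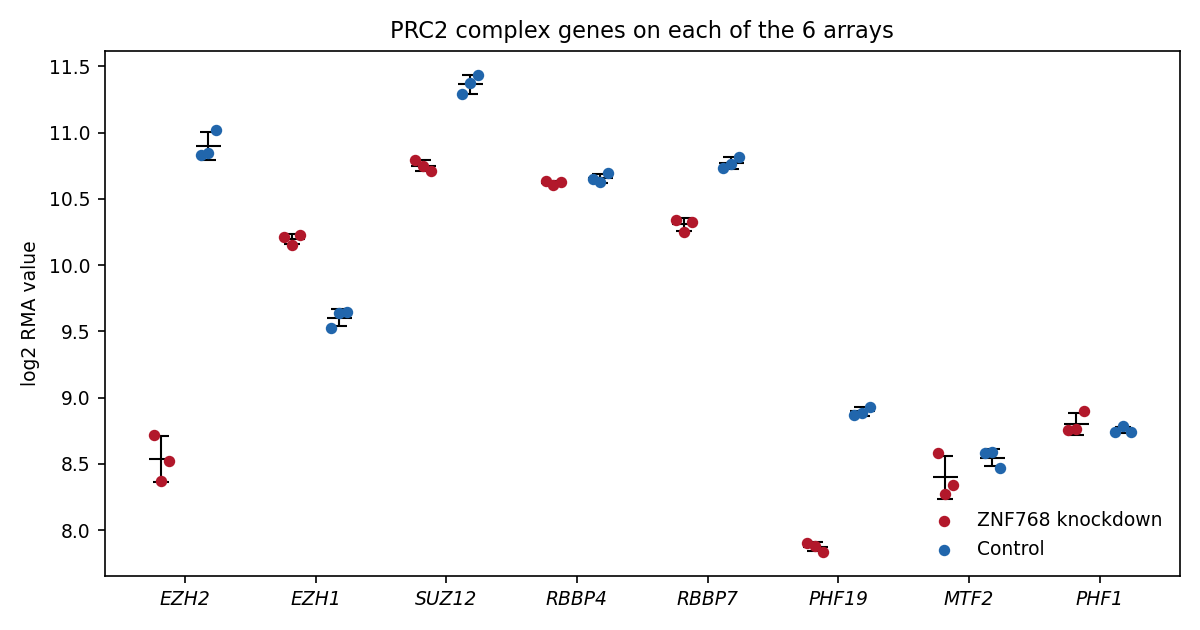
Log2 RMA values (y axis) of the 8 measured PRC2 genes (x axis) on each array, with ZNF768 knockdown in red on the left and control in blue on the right of each gene, and bars for the mean and SD of 3 arrays. EZH2, SUZ12, RBBP7 and PHF19 lie lower in ZNF768 knockdown cells without overlap, EZH1 lies higher, and RBBP4, MTF2 and PHF1 overlap.

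EZH2, the methyltransferase itself, read 8.71, 8.37 and 8.52 in ZNF768 knockdown cells, against 10.83, 10.85 and 11.02 in control cells. The groups were more than 2 log2 units apart and each spread over less than 0.4. EZH2 fell by 2.36 log2 units (SE 0.105, 95% interval -2.62 to -2.11, limma adjusted p = 4.73e-05), to 0.194 of its control level. Of all 14884 genes, 78 had a more negative log2 fold change, which is 0.524% of them. EZH1, the second methyltransferase of the complex, moved the other way. It read 10.22, 10.16 and 10.23 in ZNF768 knockdown cells, against 9.53, 9.64 and 9.64 in control cells, and was higher on every array of the knockdown than on any control array. Its log2 fold change was 0.60 (SE 0.0607, 95% interval 0.45 to 0.74, limma adjusted p = 0.000898), or 1.51 times its control level. The log2 value of EZH2 minus that of EZH1, which compares a change between probesets and not their levels, was -1.66 ± 0.15 in ZNF768 knockdown cells and 1.30 ± 0.08 in control cells (SD, n = 3 each). The change in this difference was -2.96, in an exact two-sided permutation test with p = 0.1, the smallest that 3 against 3 arrays allow.

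SUZ12, the subunit that holds the core together and is needed for its activity, read 10.79, 10.75 and 10.71 in ZNF768 knockdown cells, against 11.29, 11.37 and 11.43 in control cells. It fell by 0.61 log2 units (SE 0.0628, limma adjusted p = 0.000918), to 0.653 of its control level, a smaller step than that of EZH2 and again without overlap between the groups. The histone-binding subunits RBBP4 and RBBP7 are close relatives and were read apart. RBBP7 read 10.34, 10.25 and 10.33 in ZNF768 knockdown cells, against 10.73, 10.76 and 10.82 in control cells. It fell by 0.46 log2 units (SE 0.0585, limma adjusted p = 0.00217), to 0.726 of its control level. RBBP4 read 10.64, 10.61 and 10.62 in ZNF768 knockdown cells, against 10.65, 10.62 and 10.69 in control cells, and the groups overlapped. Its log2 fold change was -0.032 (95% interval -0.16 to 0.09, limma adjusted p = 0.715), and 0.032 when the arrays were centred on housekeeping genes. The upper and lower bounds leave room for changes in RBBP4 of either sign that are smaller than the fall of RBBP7.

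Among the Polycomb-like proteins, which read methylated histone H3 through a Tudor domain and bind DNA, PHF19 fell, and MTF2 and PHF1 did not pass the test. PHF19 read 7.90, 7.88 and 7.84 in ZNF768 knockdown cells, against 8.87, 8.89 and 8.93 in control cells. It fell by 1.02 log2 units (SE 0.0543, 95% interval -1.15 to -0.89, limma adjusted p = 8.58e-05), to 0.493 of its control level. MTF2 read 8.58, 8.28 and 8.34 in ZNF768 knockdown cells, against 8.58, 8.59 and 8.47 in control cells. The knockdown arrays were spread most widely for this gene after EZH2, and 1 of them lay within the control range. Its log2 fold change was -0.15 (95% interval -0.38 to 0.08, limma adjusted p = 0.327). It was -0.24 without ZNF768 knockdown replicate 1 (limma adjusted p = 0.0879) and -0.087 without replicate 2 (limma adjusted p = 0.607). PHF1 read 8.75, 8.76 and 8.90 in ZNF768 knockdown cells, against 8.74, 8.78 and 8.74 in control cells, with a log2 fold change of 0.05 (95% interval -0.11 to 0.20, limma adjusted p = 0.651). PHF1 had 3 named probesets, and the other two gave 0.04 and 0.13, neither past the test. Each remaining member had 1 named probeset.

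**Figure D2:**
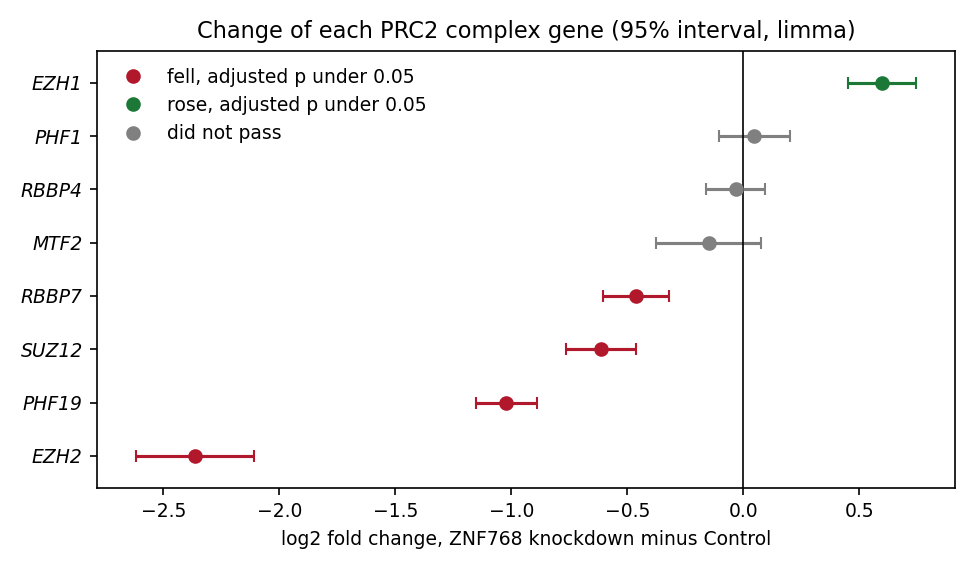
Log2 fold change of ZNF768 knockdown minus control (x axis) for the 8 measured PRC2 genes (y axis), with 95% intervals from limma. The changes run from -2.36 for EZH2 to 0.60 for EZH1, and the intervals of PHF1, RBBP4 and MTF2 include 0.

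The changes of the members differed in size. The change of EZH2 was more negative than that of each of the other 7, with a log2 difference of -1.34 from PHF19, -1.75 from SUZ12, -1.90 from RBBP7, -2.21 from MTF2, -2.33 from RBBP4, -2.41 from PHF1 and -2.96 from EZH1. For all 7 pairs the difference of log2 values within an array lay lower on every knockdown array than on any control array. Each pair had an exact two-sided permutation p = 0.1, also after Benjamini-Hochberg adjustment over the 7 pairs, and this design cannot go lower. The intervals from limma of EZH2 and PHF19 did not overlap (-2.62 to -2.11 and -1.15 to -0.89). SUZ12 and RBBP7 were neighbours in the order of changes, and their intervals overlapped (-0.77 to -0.46 and -0.60 to -0.32). PHF19 had 478 of the 14884 genes below it in the order of log2 fold changes, SUZ12 had 1170 and RBBP7 had 1645, while 94.5% of all genes had a lower change than EZH1.

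**Figure D3:**
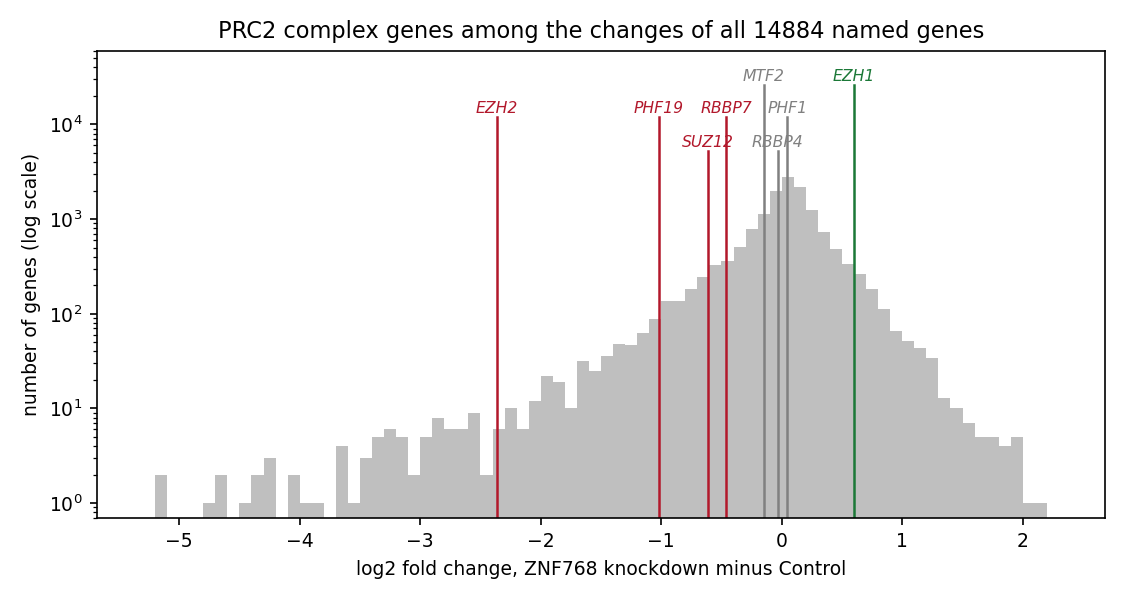
Histogram of the log2 fold changes of all 14884 named genes (x axis, ZNF768 knockdown minus control; y axis, number of genes on a log scale), with the 8 PRC2 genes as lines, red where they fell, green where they rose and grey where they did not pass. EZH2 stands in the lower tail with 78 genes below it, and PHF1, RBBP4 and MTF2 stand within the centre.

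Since EZH2 and other genes of dividing cells are known to be controlled through promoter elements bound by E2F and by NF-Y, the promoters of the members were searched for such letters. The windows come from the RefSeq promoter table (GRCh38.p14), which holds 250 bases before and 50 bases after a start site, and all 10 genes matched, with 15 windows in all. The E2F motif was searched as TTTGGCGC, TTTCCCGC, TTTCGCGC or TTTGCCGC, the cell cycle homology region (CHR) of genes bound by the DREAM and MYB complexes as TTTGAA, and the NF-Y box as CCAAT, each on both strands. None of these motifs contains another, and their exact letters were set after expression values had been seen. The windows shown were picked because they hold an E2F match. Of 5 such windows that of MTF2, which did not pass the test, is left out. The 4 shown belong to 3 members that fell (EZH2, SUZ12 and PHF19) and to EZH1, which rose. RBBP7, which also fell, has no E2F match in either of its windows. Capitals mark every match to a motif, on either strand.
EZH2 promoter, chr7:148884242-148884541, minus strand: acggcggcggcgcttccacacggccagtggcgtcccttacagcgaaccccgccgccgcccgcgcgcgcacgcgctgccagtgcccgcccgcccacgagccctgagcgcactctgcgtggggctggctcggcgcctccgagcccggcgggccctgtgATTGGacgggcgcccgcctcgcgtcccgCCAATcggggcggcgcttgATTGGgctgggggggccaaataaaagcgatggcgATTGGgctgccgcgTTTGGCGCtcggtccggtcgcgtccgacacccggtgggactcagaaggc
SUZ12 promoter, chr17:31936757-31937056, plus strand: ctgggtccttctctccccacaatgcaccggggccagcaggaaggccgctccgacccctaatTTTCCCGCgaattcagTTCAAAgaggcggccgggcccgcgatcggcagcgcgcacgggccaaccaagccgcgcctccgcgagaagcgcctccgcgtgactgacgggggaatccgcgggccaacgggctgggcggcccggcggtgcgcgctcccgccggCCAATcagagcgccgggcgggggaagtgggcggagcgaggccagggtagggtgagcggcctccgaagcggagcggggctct
PHF19 promoter, chr9:120877139-120877438, minus strand: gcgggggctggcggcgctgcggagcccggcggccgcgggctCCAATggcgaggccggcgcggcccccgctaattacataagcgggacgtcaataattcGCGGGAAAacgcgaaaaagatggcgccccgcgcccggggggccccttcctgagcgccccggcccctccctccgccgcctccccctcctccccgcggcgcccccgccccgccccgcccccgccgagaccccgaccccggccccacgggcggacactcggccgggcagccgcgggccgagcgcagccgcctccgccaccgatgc
EZH1 promoter, chr17:42744991-42745290, minus strand: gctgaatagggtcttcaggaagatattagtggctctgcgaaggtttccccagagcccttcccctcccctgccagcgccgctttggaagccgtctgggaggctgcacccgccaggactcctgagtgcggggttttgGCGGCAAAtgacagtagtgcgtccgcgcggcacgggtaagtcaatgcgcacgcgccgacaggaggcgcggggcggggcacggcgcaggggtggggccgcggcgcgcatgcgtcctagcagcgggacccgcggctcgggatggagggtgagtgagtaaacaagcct

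The EZH2 window holds 4 CCAAT boxes on the 2 strands and an E2F match, TTTGGCGC, whose first base is base 2 after the start site. The second EZH2 window, at another start site, holds none of the 3 motifs, and the other PHF19 window holds a CCAAT box and no E2F match. In SUZ12 the E2F match TTTCCCGC begins at base -189 from the start site, and in PHF19 the same letters lie on the opposite strand from base -152. A match was also found for EZH1, which rose, as TTTGCCGC on the opposite strand from base -115, and for MTF2, which did not pass the test, as TTTCCCGC on the opposite strand from base 6. Of the 10 genes, 5 had an E2F match in at least 1 window, against 4.0% of the 27305 genes in the table. A CCAAT box was present in 7 of the 10 genes, against 39.7%, and a CHR match in 1 of the 10, SUZ12, against 18.2%. The E2F letters thus occurred in members that fell, that rose and that did not pass. RBBP4, RBBP7, PHF1, EED and JARID2 held no exact E2F match in these windows. A match of letters is a description of the sequence.

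E2F1 and E2F3, activators that drive genes of the G1 to S transition, and RB1, which restrains them, belong to the list of regulators known for EZH2 and EED transcription. Of its 6 genes, all measured, 5 fell and 1 rose, where 16.8% and 16.6% of all genes did so. The list had a median log2 fold change of -1.18. E2F8, a repressor, fell by 2.06 (SE 0.0692) and E2F1 fell by 1.80 (SE 0.0879), while E2F7, also a repressor, changed by 0.38 in log2 (limma adjusted p = 0.00674). The log2 fold changes of E2F2, E2F3 and RB1 were -0.75, -0.69 and -1.61, and all 3 fell. These last 3 are named because each belongs to this short list, after their values were seen.

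Other PRC2 partners moved in both directions. LCORL rose with a log2 fold change of 0.76 (SE 0.0533) and LCOR with 0.67 (SE 0.0843), genes whose longer products, the PALI proteins, bind PRC2. AEBP2, a zinc finger subunit of the PRC2 form that holds JARID2, fell by 0.28 (limma adjusted p = 0.0112). EPOP, an adaptor that links PRC2 to elongin, had a log2 fold change of -0.11 (limma adjusted p = 0.318) and is named after its value was seen. Thus 2 of 4 measured genes of this list rose and 1 fell, against 16.6% and 16.8% of all genes. The median log2 fold change of the list was 0.28. The H3K27 demethylases work against PRC2. KDM6B read 9.20 on average in ZNF768 knockdown cells and 8.88 in control cells and rose with a log2 fold change of 0.32 (limma adjusted p = 0.0213). This call was lost when any of 4 arrays was left out (ZNF768 knockdown replicate 1 or 3, control replicate 2 or 3), with adjusted p from 0.0360 to 0.0662 over the 6 arrays left out in turn. The pair had a median of 0.16, and KDM6A had a log2 fold change of -0.01 (95% interval -0.15 to 0.14), and is named after its value was seen.

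PRC1, the second Polycomb complex, ubiquitinates histone H2A and binds the mark that PRC2 leaves. Of 21 genes 16 were measured, of which 5 fell, 4 rose and 7 did not pass, with a median log2 fold change of 0.01. These counts, and those of PR-DUB below, stand against 16.8% of all genes that fell and 16.6% that rose. PCGF6 fell by 0.63 (SE 0.0612) and PHC2 by 0.63 (SE 0.0588), the first a subunit of variant PRC1 and the second of canonical PRC1. RYBP, which defines variant PRC1, rose with 0.75 (SE 0.0858) and PCGF5 with 0.44 (SE 0.0927), a call that was lost without control replicate 1 or 3 (adjusted p = 0.0550 and 0.0583 from limma). When an array was left out, 4 genes of PRC1 fell in each fit and 2 to 3 rose. Of these fits, 2 genes rose without control replicate 1 and 2 without control replicate 2. With the replicate number as a block, 4 fell and 1 rose. In the PR-DUB complex, which removes ubiquitin from H2A, 2 of 5 measured genes fell, FOXK1 by 0.27 and ASXL2 by 0.21, and FOXK2 rose with 0.26, at a list median of 0.14. None of these 3 calls held for every array left out, and 0 to 1 of the genes fell and 0 to 1 rose in those fits. ASXL2 was lost without any 1 of the 6 arrays, FOXK1 without ZNF768 knockdown replicate 1 or 2 or control replicate 2 or 3, and FOXK2 without control replicate 2.

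**Figure D4:**
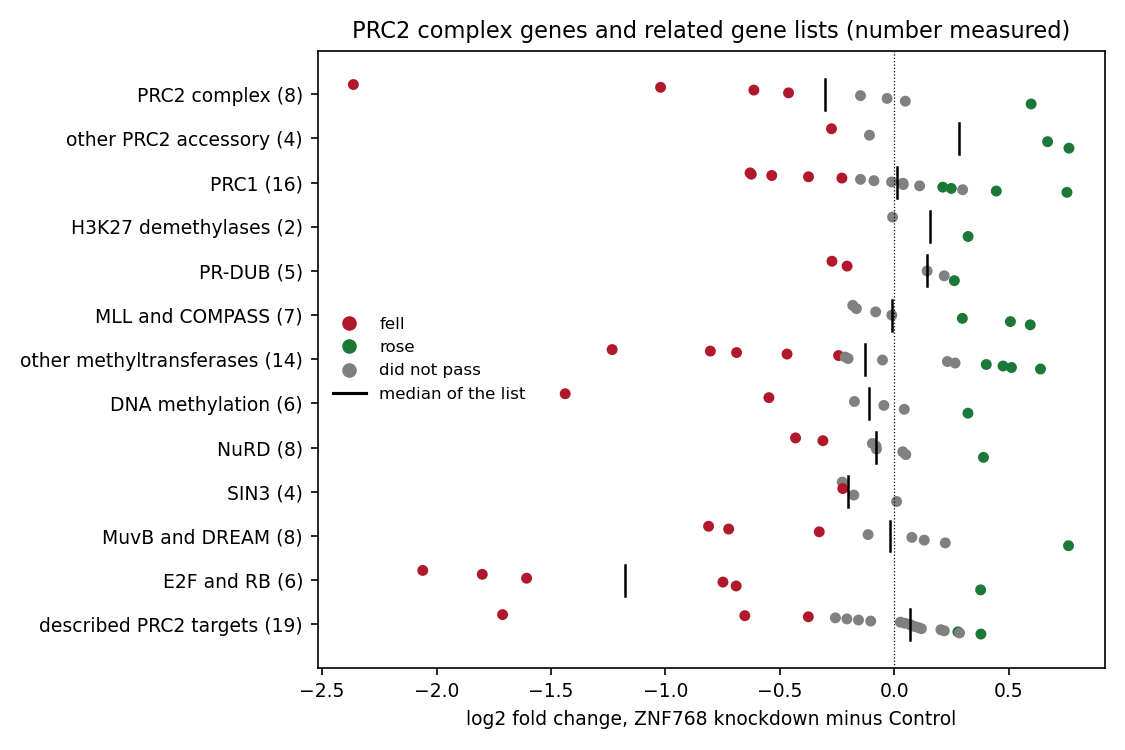
Log2 fold change of ZNF768 knockdown minus control (x axis) for each measured gene of the PRC2 complex and of 12 related lists (y axis, with the number measured), red where a gene fell, green where it rose, grey where it did not pass, with a line at the median of the list. EZH2 has the lowest value of the genes shown, and the PRC1 list has 5 falls and 4 rises with its median at 0.01. Over all genes 16.8% fell and 16.6% rose.

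RBBP4 and RBBP7 serve several complexes, whose other subunits were read as lists, to be set against the 16.8% of all genes that fell and the 16.6% that rose. In NuRD, a remodelling and deacetylase complex, 2 of 8 measured genes fell, HDAC2 by 0.43 and GATAD2A by 0.31, and 1 rose, MBD2 with 0.39, counts near those shares, while CHD4 had a log2 fold change of -0.08 and HDAC1 of -0.08. The median of the list was -0.08, and CHD4 and HDAC1 are named after their values were seen. In the SIN3 complex SIN3B fell by 0.23 as 1 of 4 measured (list median -0.20), a call that was lost without any 1 of the 6 arrays (limma adjusted p from 0.0696 to 0.121), so that none of the 4 fell in those fits. DREAM represses cell cycle genes in resting cells, and its subunits were read in a list with those of MuvB. In that list LIN9 fell by 0.81, RBL1 by 0.72 and LIN54 by 0.33 (named after its value was seen). LIN37 rose with 0.76, and 4 of 8 did not pass, with a list median of -0.02. Without ZNF768 knockdown replicate 1, 2 genes of this list rose. The CAF-1 subunits had no named probeset.

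The other enzymes that methylate histones also split. Counts in this paragraph stand against 16.8% of all genes that fell and 16.6% that rose. Of 14 measured lysine methyltransferases besides EZH2 and EZH1, with a median log2 fold change of -0.13, 5 fell and 4 rose, and 2 to 4 rose when an array was left out (2 without ZNF768 knockdown replicate 1 and 2 without replicate 3). NSD2, which writes H3K36 methylation, fell by 1.23 (SE 0.0568, limma adjusted p = 5.33e-05) and SUV39H2, an H3K9 methyltransferase, by 0.80 (SE 0.0958). KMT5B, an H4K20 methyltransferase, rose with 0.64 and EHMT1, an H3K9 methyltransferase, with 0.51. NSD2 was the only one of the 14 whose fall was at least 2-fold. Of 7 measured genes of the MLL and COMPASS complexes, which methylate H3K4 and oppose Polycomb silencing, none fell and 3 rose, led by DPY30 with 0.59 and KMT2C with 0.51, at a list median of -0.01. At an unadjusted p under 0.05, 2 of the 7 had a negative change. In DNA methylation, UHRF1, which guides DNMT1 to newly replicated DNA, fell by 1.44 (SE 0.0687) and TET1, a 5-methylcytosine dioxygenase, by 0.55, out of 6 measured with a list median of -0.11. The mean of the TET1 probesets gave a smaller log2 fold change of -0.30 (limma adjusted p = 0.0461). DNMT3A, a de novo methyltransferase, had a log2 fold change of 0.32 and rose, which was lost in 5 of the 6 fits with an array left out (adjusted p up to 0.107 from limma), all but the one without ZNF768 knockdown replicate 2.

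Of 30 genes described as repressed by PRC2 in other cells, 19 were measured. Among them 2 rose, 3 fell and the other 14 missed the threshold, with a median log2 fold change of 0.07. Neither share exceeds that over all genes, of which 16.6% rose and 16.8% fell. Part of the list is dim, besides CDKN2A and CXCL10 below. RUNX3, CNR1, GATA4, NKX2-2, NEUROG2, SFRP1 and CXCL9, named after their values were seen, read 5.05 to 6.18 in control cells, below the array medians. For such genes a change may be missed, so the counts do not describe the whole list equally well. SLIT2, a guidance ligand, rose with 0.28 (limma adjusted p = 0.0189) and the homeobox gene HOXD10 with 0.38 (limma adjusted p = 0.0112). The call of SLIT2 was lost without ZNF768 knockdown replicate 1 or 2 or control replicate 1 or 2 (highest adjusted p = 0.0646). TIMP3, a metalloprotease inhibitor, fell by 1.71 (SE 0.0533) and GATA6, a transcription factor, by 0.65 (SE 0.0677). The third that fell was CXCL10, by 0.38, with values of 4.50 in ZNF768 knockdown cells and 4.88 in control cells that are under the lower quartiles of the arrays (5.17 to 5.20). CDKN2A, a Polycomb target best known from senescence, read 6.01 in ZNF768 knockdown cells and 5.90 in control cells, with a log2 fold change of 0.10 (95% interval -0.07 to 0.28, limma adjusted p = 0.374). It and CXCL10 are named after their values were seen. Both values of CDKN2A lie below the median of the arrays, and control replicates 1 and 2 and ZNF768 knockdown replicate 2 share the value 5.91. Whether CDKN2A is expressed or present in these cells was not examined, so its small change says nothing about its silencing. The list does not say which of its genes PRC2 binds in U87 cells.

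The genes most like EZH2 were found by the root mean square difference over the 6 arrays, after each gene was centred on its own mean. They were PCDH18, a protocadherin, with 0.0877, KIF23, a kinesin of cytokinesis, with 0.0938, ARHGAP11B with 0.0968, MFAP4, a matrix glycoprotein, with 0.103 and TROAP, a spindle protein, with 0.103 on the log2 scale. Their log2 fold changes ran from -2.52 for ARHGAP11B to -2.21 for PCDH18. ARHGAP11B is a partial copy of ARHGAP11A, so its probes may read both genes. The genes most like SUZ12 were UBA3, BCL6, MCAM, RRAGA and ARFGAP2, with differences of 0.0167 to 0.0266. Likeness over 6 arrays in 2 groups is mainly likeness of a single difference, and 502 genes fell by 2-fold or more.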

How the data were processed

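RNA of U87 cells was measured on 6 Affymetrix Human Gene 2.0 ST arrays, 3 with ZNF768 knockdown and 3 controls. The authors extracted log2 values per probeset by RMA in the oligo package, and the deposited table holds 53617 probesets. Versions and any filter are not given in the sources used here. No scanner files were analysed, so background, slide and scan date were not examined, and the number of arrays limits precision. Probesets were named through the platform table, with the Entrez identifiers of all 16098 named probesets matched to RefSeq, and 37519 probesets are unnamed here. The probeset with the highest mean over 6 arrays stood for a gene.

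The groups were compared with limma 3.58.1 in R 4.3.3 (lmFit and eBayes, no covariate, no filter), with Benjamini-Hochberg adjustment over all probesets. Pairs of members were compared by exact permutation over arrays. The procedure was tested on simulated data. The members and lists were chosen with earlier results of these data known. A second name of KMT5A was later taken out of its list as a duplicate. The text names the members, ZNF768, up to 2 rises and 2 falls in each list and the 5 genes most like EZH2 and SUZ12, and says where a gene falls outside this rule. Housekeeping genes served for centring, and of the 6 measured TBP and PPIA fell (log2 fold changes -0.25 and -0.30). Alternatives were cyclic loess, that centring, a filter on dim probesets, named probesets alone, the mean of a gene's probesets, trend and robust eBayes, array weights, a replicate block, a threshold of 0.01 and leaving out each array.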

Additional observations from a re-analysis of the deposited data

How the results depend on the processing

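Under all 15 alternatives 4 of the 8 measured PRC2 genes fell and 1 rose. EZH2 had log2 fold changes from -2.45 to -2.28 over them, with adjusted p from 4.08e-06 to 0.00166 from limma. The other calls of members held too, with log2 fold changes from -1.04 to -0.96 for PHF19, -0.65 to -0.55 for SUZ12, -0.49 to -0.40 for RBBP7 and 0.56 to 0.66 for EZH1. MTF2, RBBP4 and PHF1 passed under none of them. RBBP4, which had no call, changed sign, with a log2 fold change of 0.032 against -0.032, when the arrays were centred on 6 housekeeping genes. That centring moved the median log2 fold change of all genes to 0.11, against 0.04 in the deposited values, and the counts over all genes to 2137 falls and 3257 rises, against 2501 and 2466. With a threshold of 0.01, 1796 genes fell and 1506 rose. No pairing by replicate number was seen: the deviations of same-numbered arrays from their group means correlated at -0.07, -0.02 and 0.02. With 3 arrays per group this cannot tell whether the samples were set up in pairs. With the replicate number as a block the members kept their 4 falls and 1 rise, EZH2 had a log2 fold change of -2.36, 2029 genes fell and 1865 rose, and the calls of AEBP2 (adjusted p = 0.0553 from limma), ASXL2, DNMT3A, FOXK1, FOXK2, KDM6B, PCGF5, PPIA, SIN3B, SLIT2 and TBP were lost. Of the 5 genes most like EZH2, 4 to 5 were shared under other scalings and the filter, and of those most like SUZ12 3 to 5. Signal over background was not examined, so a fall in a dim gene may be larger than measured.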
